A study of Mus musculus with 8 samples.

Results

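The plasminogen activation system turns the inactive circulating protein plasminogen into plasmin, a protease that cuts fibrin and other matrix proteins and activates some growth factors and metalloproteinases. The genes described here were 7 listed members: the activators Plau (urokinase, uPA) and Plat (tissue plasminogen activator, tPA), the urokinase receptor Plaur (uPAR), the plasminogen-binding annexin Anxa2, and the serpin inhibitors Serpinb2 (PAI-2), Serpine2 (protease nexin-1) and Serpinf2 (alpha-2-antiplasmin). Of these, 6 had a probe set that carried their symbol alone, and 1 probe set each, out of 19938 genes in all. The Entrez identifiers of the measured genes are 18792 for Plau, 18791 for Plat, 18793 for Plaur, 12306 for Anxa2, 18788 for Serpinb2 and 18816 for Serpinf2. No probe set met this rule for Serpine2, which is not analysed here. The members were chosen from results of these same 8 arrays, with their levels over the 4 groups known, so their levels and differences are a description and carry no test.

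MBA-15 is a mouse bone stromal line of pre-osteoblastic character and DA3 is a line from a mouse mammary adenocarcinoma. The 4 groups of 2 arrays were DA3 alone, DA3 co-culture, MBA-15 alone and MBA-15 co-culture, all in the same serum-containing medium and all described as 24 h. Co-cultured cells were parted with magnetic particles against the epithelial surface protein EpCAM, so that co-cultured DA3 is the fraction that bound and co-cultured MBA-15 the fraction that did not. Each cell type is represented by 1 established line, and no label tells if both arrays of a group stem from different cultures, so that errors and p-values measure the spread between these arrays, which may be technical. Values are log2 expression after RMA, an array normalization, and probe sets differ in their response, so levels are compared within a gene only. The lowest array median, 4.479, serves as the mark below which a gene is called dim.

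Urokinase is secreted as a proenzyme and, bound to its receptor at the cell surface, it activates plasminogen there. Tissue plasminogen activator works mainly on fibrin. Serpins inhibit these proteases by acting as a bait that is cut and then holds the enzyme, and in tumours urokinase, its receptor and its inhibitors are often made by different cells of the tumour and its stroma.

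The MBA-15 arrays labelled alone went against their label. The descriptions of the 4 arrays labelled alone, those of DA3 included, hold the word mix beside a positive or negative fraction, and what was mixed is not stated there. What that means for DA3 alone, and so for each difference from it, was not tested. Epcam, the gene of the sorting antigen, was at 8.45 and 9.25 there, against 5.58 and 5.19 in co-cultured MBA-15 and 9.57 and 9.46 in DA3 alone. The mean of 10 epithelial markers was 8.35 and 8.81 on them, 5.33 and 5.24 in co-cultured MBA-15, and between 9.17 and 9.59 on the 4 DA3 arrays. The mean of 13 stromal markers was 7.86 and 7.80 there, 8.36 and 8.01 in co-cultured MBA-15, 5.34 and 5.48 in DA3 alone, and 6.50 and 5.94 in co-cultured DA3. On a linear scale from co-cultured MBA-15 to DA3 alone, 30 genes more than 4 log2 units higher in DA3 alone had a median of 39.4% and 59.9% of the way to DA3 on arrays 1 and 2 labelled MBA-15 alone. The same 30 genes were at 65.4% and 76.3% on the co-cultured DA3 arrays, where 52 genes restricted to MBA-15 reached 5.28% and 4.7% of the way back. All 4 endothelial markers and 5 of 6 measured leukocyte markers were dim on every array.

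The promoters of the members with the clearest differences or a shared motif are shown as the 250 bases before the first RefSeq start (GRCm38.p6), written 5' to 3', with matches to the core TGANTCA of the AP-1 transcription factor motif in capitals. This motif reads the same on both strands and overlaps no match to the other motifs searched in these 3 windows.
Serpinb2, chr1:107511173-107511422, + strand: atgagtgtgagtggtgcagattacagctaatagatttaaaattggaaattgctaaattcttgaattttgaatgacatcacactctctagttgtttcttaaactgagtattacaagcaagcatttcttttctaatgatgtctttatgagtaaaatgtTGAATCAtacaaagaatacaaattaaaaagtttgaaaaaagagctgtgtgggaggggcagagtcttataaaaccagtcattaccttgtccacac
Plaur, chr7:24462233-24462482, + strand: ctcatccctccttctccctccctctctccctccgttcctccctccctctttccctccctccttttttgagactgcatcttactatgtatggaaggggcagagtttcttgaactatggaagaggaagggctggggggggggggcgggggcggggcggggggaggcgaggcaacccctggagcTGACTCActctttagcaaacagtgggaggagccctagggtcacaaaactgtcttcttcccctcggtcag
Anxa2, chr9:69453433-69453682, + strand: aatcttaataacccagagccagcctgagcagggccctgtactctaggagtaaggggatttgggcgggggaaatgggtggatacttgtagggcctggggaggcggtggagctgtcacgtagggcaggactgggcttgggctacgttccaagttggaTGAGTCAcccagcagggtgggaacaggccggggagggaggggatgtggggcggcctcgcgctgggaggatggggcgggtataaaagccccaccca

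RefSeq promoters were found for 5 of the 7 listed members. Plau and Plat had none in the sources used here, so they were not searched for motifs. The AP-1 core stood at -94 in Serpinb2 (match TGAATCA), at -69 in Plaur (TGACTCA) and at -95 in Anxa2 (TGAGTCA), counted to the first base of the match with -1 as the base before the start. It was found in 6.75% of 32851 promoter windows of this length. The windows of Serpinf2 and Serpine2 held no such letters. The TATA box TATAAA, searched on both strands and found in 12.4% of windows, stood at -29 in Serpinb2 and at -17 in Anxa2, and Plaur had none. The GC box GGGCGG, found in 32.7% of windows on either strand, occurred 3 times each in Plaur and Anxa2 and not in the Serpinb2 window. A match is a run of letters and not a measured binding site. Serpinb2 has a later RefSeq start as well, from which the same AP-1 match lies at -181.

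**Figure D1:**
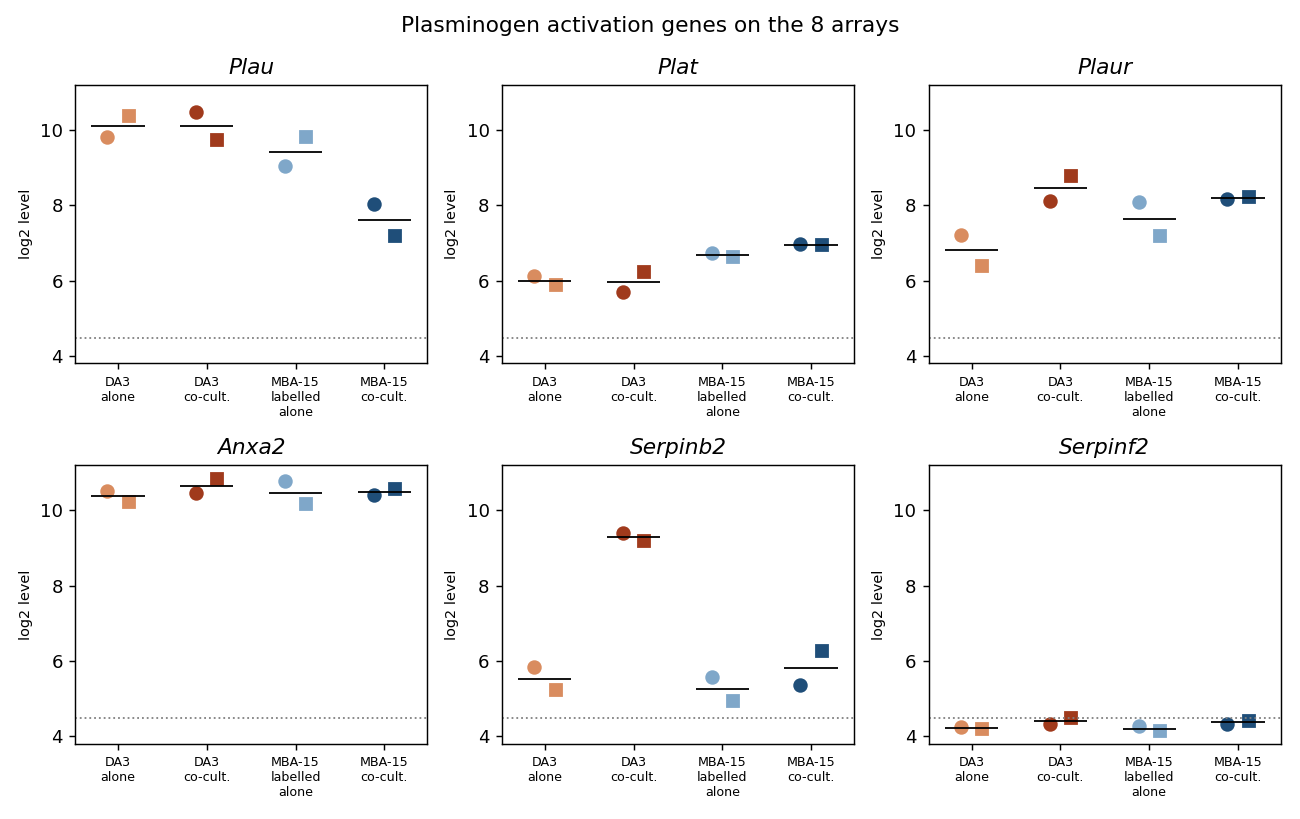
Log2 level of each measured member on the 8 arrays, with circles for replicate 1, squares for replicate 2, lines for the mean of a group and a dotted line at the lowest array median of 4.479. Serpinb2 is high only on the 2 co-cultured DA3 arrays (9.39 and 9.19), Plau is lowest on the co-cultured MBA-15 arrays, and the groups of Anxa2 overlap; levels of different genes are not comparable.

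Urokinase was higher in both DA3 groups than in co-cultured MBA-15. Between DA3 alone and co-cultured MBA-15 both the line and the culture differ, and these cannot be told apart. The log2 level of Plau was 9.83 and 10.37 in DA3 alone and 10.48 and 9.75 in co-cultured DA3, 9.05 and 9.80 on the MBA-15 arrays labelled alone, and 8.04 and 7.19 in co-cultured MBA-15. The DA3 groups overlapped each other, and both co-cultured MBA-15 arrays lay below all 6 others. Plau was thus 5.60-fold higher in DA3 alone than in co-cultured MBA-15 (a difference of -2.48 ± 0.41 log2 units for MBA-15, SE of limma, n = 2 arrays per group) and 5.65-fold higher in the DA3 fraction of the co-culture than in the MBA-15 fraction. The MBA-15 to DA3 alone gap was -3.18 between the arrays that carry assay number 3 in their descriptions and -1.79 between those of assay number 4. Between co-cultured DA3 and DA3 alone the difference of Plau was 0.01 ± 0.41.

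Tissue plasminogen activator had the opposite order. Plat was at 6.97 and 6.94 in co-cultured MBA-15, 6.73 and 6.64 on the MBA-15 arrays labelled alone, 6.11 and 5.87 in DA3 alone and 5.71 and 6.23 in co-cultured DA3. The 4 MBA-15 arrays all lay above the 4 DA3 arrays, and the DA3 groups overlapped. The level was 1.95-fold higher in co-cultured MBA-15 than in DA3 alone (0.96 ± 0.19 log2 units) and 1.98-fold higher than in co-cultured DA3 (0.98 ± 0.19). Across the 8 arrays Plau and Plat had a Pearson r of -0.872, a description over arrays that share 4 groups and 2 lines.

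The urokinase receptor differed between the DA3 groups. Plaur was at 7.22 and 6.40 in DA3 alone and at 8.11 and 8.79 in co-cultured DA3, which did not overlap. It was at 8.08 and 7.20 on the MBA-15 arrays labelled alone and at 8.16 and 8.22 in co-cultured MBA-15. The co-cultured DA3 level was 3.12-fold that of DA3 alone (1.64 ± 0.40 log2 units), and overlapped that of co-cultured MBA-15. Between the assay number 3 arrays this difference was 1.71. With co-cultured MBA-15 values mixed into those of DA3 alone, it was 1.52 ± 0.38. The share mixed in was the mean of 5.28% and 4.7%, read from the MBA-15 genes in co-cultured DA3. The DA3 genes stood at 65.4% and 76.3% there, and a larger share was not tested. In MBA-15 the difference from the labelled controls was 0.55 ± 0.40, made up of 1.03 within assay number 3 and 0.08 within assay number 4.

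Annexin A2, which forms a complex with S100a10 that binds plasminogen and tPA at the cell surface, did not differ between the groups beyond its spread. Anxa2 was at 10.51 and 10.23 in DA3 alone, 10.47 and 10.84 in co-cultured DA3, 10.77 and 10.16 on the MBA-15 arrays labelled alone, and 10.40 and 10.58 in co-cultured MBA-15. All neighbouring groups in this order of means overlapped, and the largest gap between any 2 group means was 0.29. Its partner S100a10 had group means between 9.28 and 9.64, and Plgrkt, a membrane receptor of plasminogen, between 5.42 and 6.06.

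Serpinb2, the inhibitor of urokinase and tPA that is kept largely inside cells, had the widest range of the members. Its log2 level was 9.39 and 9.19 in co-cultured DA3. It was 5.83 and 5.23 in DA3 alone, 5.57 and 4.93 on the MBA-15 arrays labelled alone, and 5.37 and 6.27 in co-cultured MBA-15. Both co-cultured DA3 arrays lay above all 6 others, and the other 3 groups overlapped one another in their order of means. The co-cultured DA3 mean was 13.5-fold that of DA3 alone (3.76 ± 0.37 log2 units) and 11.1-fold that of co-cultured MBA-15 (-3.47 ± 0.37 for MBA-15). Only assay number 3 holds both fractions, and there the difference was -3.11 for MBA-15. The difference within the DA3 line was 4.16 between the assay number 3 arrays, the one assay number that holds both DA3 groups. With co-cultured MBA-15 values mixed into DA3 alone at the same share as for Plaur, it was 3.74 ± 0.36. The groups mixed had similar Serpinb2 means, 5.82 in co-cultured MBA-15 and 5.53 in DA3 alone. Mixing them could thus change the difference little at any share, and nothing is read from it. In bulk RNA, a change in the share of cells that express a gene and a change in RNA per cell cannot be told apart.

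Serpinf2, the main plasma inhibitor of plasmin and a product chiefly of the liver, was dim on all 8 arrays. Its levels ran from 4.13 on an array labelled MBA-15 alone to 4.47 on a co-cultured DA3 array. The difference between co-cultured DA3 and DA3 alone was 0.18 ± 0.13, and 0.04 after quantile normalization of the arrays.

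**Figure D2:**
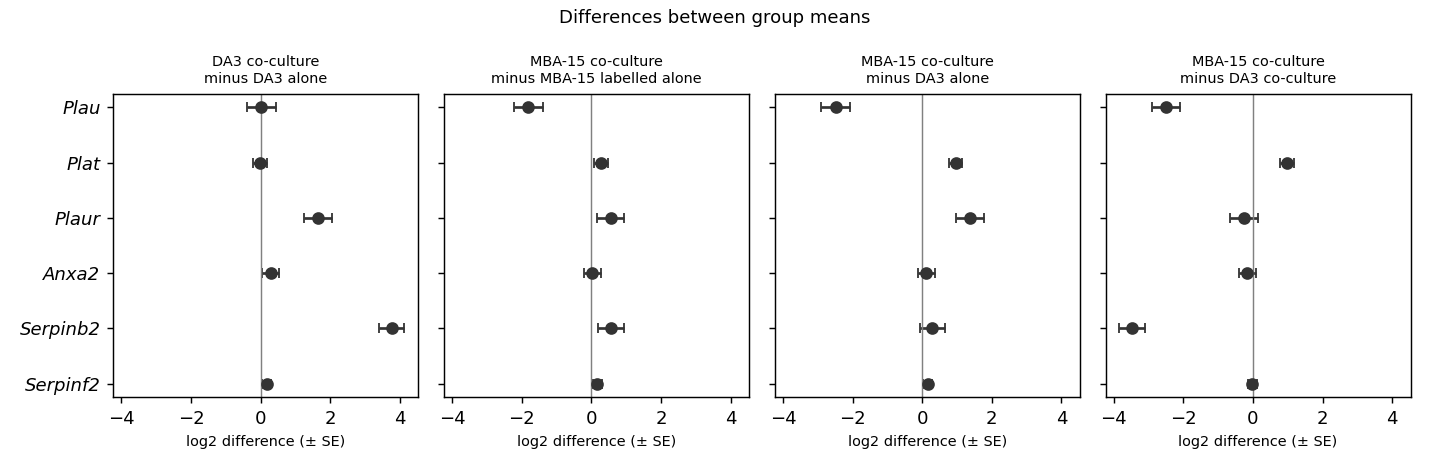
Difference of group means on the log2 scale for the 6 measured members in 4 comparisons, with bars for the standard error of the limma fit over 2 arrays a group; the panels share arrays. Serpinb2 (3.76) and Plaur (1.64) stand apart from 0 in the DA3 panel, and Plau and Plat lie on opposite sides of 0 in both panels between the lines.

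The comparison of co-cultured DA3 with DA3 alone sets the carcinoma cells from the co-culture beside those labelled alone. Of the 6 measured members, 5 were higher and 1 lower, with a median difference of 0.23 against 0.04 over all genes. Limma with Benjamini-Hochberg adjustment called 0 of the 6 at an adjusted p under 0.05, against 0.0401% of all genes, and 2 had an unadjusted p under 0.05, against 14.9% of all genes. The arrays of 3 of the 6 did not overlap, nor did those of 53.8% of all genes. With genes whose mean is dim left out before the fit, 1 member, Serpinb2, was called, and 0.517% of the 10824 genes kept.

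The comparison of co-cultured MBA-15 with the MBA-15 arrays labelled alone does the same for the stromal cells. Plau was lower by 1.81 ± 0.41 log2 units, with no overlap, beside the 39.4% and 59.9% of DA3-type expression on the control arrays. On the linear scale from co-cultured MBA-15 to DA3 alone, the same 2 control arrays held Plau at 35.6% and 75.5% of the way. With DA3 alone values mixed into the co-culture arrays at the measured share, the difference of Plau was -0.06 ± 0.35, that of Plaur 0.03 ± 0.40 and that of Plat -0.13 ± 0.20. Serpinb2 differed by 0.57 ± 0.37, or 0.42 ± 0.29 at the matched share, and by 1.34 within assay number 3 and -0.20 within assay number 4. Limma called 0 of the 6 members here, against 0.848% of all genes, and 1 had an unadjusted p under 0.05, against 9.8% of all genes.

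Between the lines limma called Plau and Plat, 2 of 6 members, in co-cultured MBA-15 against DA3 alone, where it called 12.6% of all genes. Between the fractions of the co-culture it called Plau, Plat and Serpinb2, 3 of 6, against 12.8% of all genes. The members were chosen with these values known, so nothing is read from these counts. Against DA3 alone 0 of the 6 were called without array 2 of either group and 1, Plau, without array 1 of either, and between the fractions 1, Serpinb2, without co-cultured MBA-15 array 2. A block on assay number added Plaur to the calls against DA3 alone (1.38 ± 0.27, in place of 1.38 ± 0.40). The comparisons share the co-cultured MBA-15 and DA3 alone arrays with those within each line. The change of DA3 minus the change of MBA-15 was 3.19 ± 0.52 for Serpinb2, 1.82 ± 0.59 for Plau and 1.09 ± 0.56 for Plaur. Limma called 0 of the 6 members in that difference, against 0.0602% of all genes, and 2 had an unadjusted p under 0.05, against 6.32% of all genes. The values of Serpinb2, Plau and Plaur there all include the MBA-15 arrays labelled alone.

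Serpinb2 lies in a row of clade B serpin genes, whose members had differences of either sign in DA3. In the RefSeq gene order of GRCm38.p6 the next protein-coding gene on one side is Serpinb7 and on the other Serpinb10. Serpinb10 was at 7.91 and 8.57 in DA3 alone and at 5.00 and 6.05 in co-cultured DA3 (-2.72 ± 0.43 log2 units, limma adjusted p = 0.12). Serpinb7 was at 6.45 and 6.07 against 4.04 and 4.80 (-1.84 ± 0.26, limma adjusted p = 0.0906), and Serpinb11, the next gene beyond it, differed by -0.74 ± 0.20. These 3 genes were lower in co-culture without overlap, as 53.8% of all genes were apart in one direction or the other, and Serpinb8, beyond Serpinb10, overlapped (-0.42 ± 0.36). Farther out, Serpinb3a, Serpinb3d and Serpinb3c lay between 3.72 and 4.60 on the DA3 arrays and had differences of 0.15, 0.24 and 0.25, with Serpinb3d apart, and Cdh7, past Serpinb8, was apart and higher by 0.25. None of these genes passed the limma test over all genes. Serpinb7 and Serpinb10 were among the 0.517% called when dim genes were left out before the fit. That filter keeps genes by their mean over all arrays, and Serpinb7 passed it through the arrays labelled alone. These neighbours were chosen after their values were seen, so nothing is read from those calls. The co-culture means of Serpinb7 and Serpinb11 were dim, so that their differences are at best bounds. Serpinb5 (maspin), another clade B serpin, was higher at 7.95 and 9.19 in co-culture against 7.19 and 6.83 alone. In co-cultured MBA-15 Serpinb7 and Serpinb10 were dim, at means of 3.73 and 3.93.

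**Figure D3:**
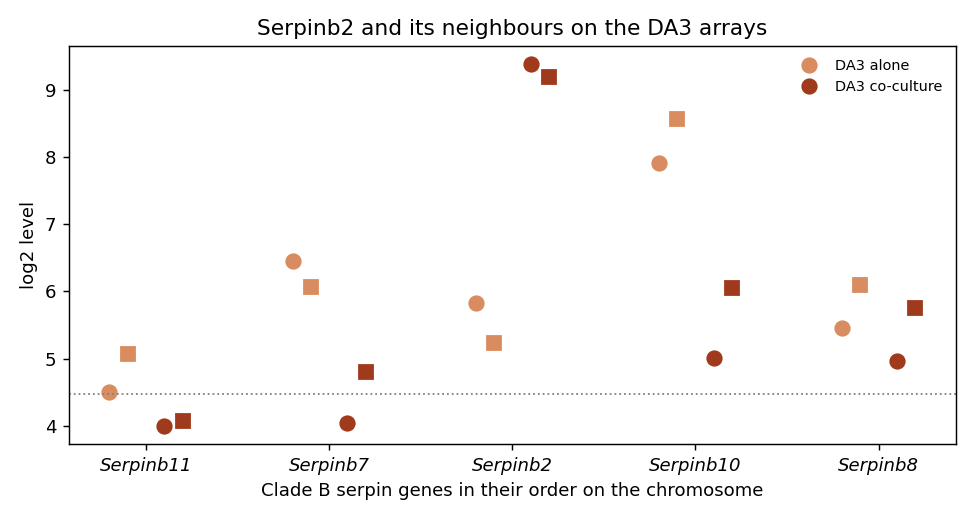
Log2 levels of 5 clade B serpin genes in the order they have on the chromosome, on the arrays of DA3 alone (light orange) and co-cultured DA3 (dark red), with circles for replicate 1, squares for replicate 2 and a dotted line at the lowest array median of 4.479. Serpinb2 is higher in co-culture (9.39 and 9.19), while Serpinb11, Serpinb7 and Serpinb10 are lower there without overlap and Serpinb8 overlaps; levels of different genes are not comparable.

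The genes most like a member in pattern were searched for Serpinb2, Plau and Plaur, whose group means span more than 1 log2 unit, by Pearson r over the 8 arrays. For Serpinb2 they were the collagen-binding integrin subunit gene Itga2 (r = 0.989), the carboxypeptidase gene Cpa4 (0.985) and the metalloproteinase gene Mmp10, stromelysin-2 (0.982). Mmp10 was at 8.01 and 7.13 in co-cultured DA3 and at 5.53 and 5.00 in DA3 alone. For Plau they were the Polycomb gene Cbx8 (0.985), the gene of the junction protein plakoglobin Jup (0.982) and the semaphorin gene Sema3f (0.979). For Plaur the likeness was lower, led by Fxyd5 (0.949), a regulator of the sodium pump, the sphingolipid synthesis gene Sptlc1 (0.947) and the acyl-CoA synthetase gene Acsbg1 (0.896). The 8 points fall into 4 groups of 2 and are no independent samples, so these r values rank likeness only.

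The rest of the pathway was read from 73 other genes in 6 lists, of which 67 were measured. Plasminogen itself was dim everywhere, with Plg group means between 3.61 and 4.02. In co-cultured DA3 against DA3 alone, limma called 0 of the 67 genes, against 0.0401% of all genes, and 13 had an unadjusted p under 0.05, against 14.9% of all genes. The largest differences outside the clade B serpins were those of the lysosomal enzyme receptor gene Igf2r (-1.23 ± 0.52), the annexin gene Anxa8 (1.18 ± 0.64), Lypd3 (1.10 ± 0.32) and the stromelysin gene Mmp3 (1.00 ± 0.53).

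In co-cultured MBA-15 against the MBA-15 arrays labelled alone, limma called 0.848% of all genes, 15 higher and 154 lower. The median difference over the 67 was 0.0427, against 0.0433 over all genes. Of the 67, limma called 0 higher and 7 lower. They were St14, the epithelial protease matriptase that can activate pro-urokinase (-3.38 ± 0.31, limma adjusted p = 0.00832), its Kunitz inhibitors Spint2 (-3.37 ± 0.28) and Spint1 (-2.70 ± 0.19), the keratin gene Krt8 (-3.01 ± 0.25), Serpinb10 (-3.37 ± 0.43), Serpinb7 (-2.16 ± 0.26) and Anxa6 (-0.93 ± 0.14, limma adjusted p = 0.0497). All 7 were higher in DA3 alone than in co-cultured MBA-15. The mean of the epithelial markers, of which Krt8 is one, was also lower on the co-cultured MBA-15 arrays. The cause of these differences was not tested. The co-culture means of St14, Spint1, Serpinb10 and Serpinb7 were dim, so that their differences are at best bounds. At the matched DA3 share the 7 differences lay between -0.42 and 0.17, and none passed in limma. St14, Spint2 and Serpinb10 are themselves among the 30 genes that set this share. Anxa6 was not called with the replicate number or the assay number as a block. Without co-cultured MBA-15 array 2 only Spint2 was called in limma, and without array 2 labelled MBA-15 alone only Spint1.

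**Figure D4:**
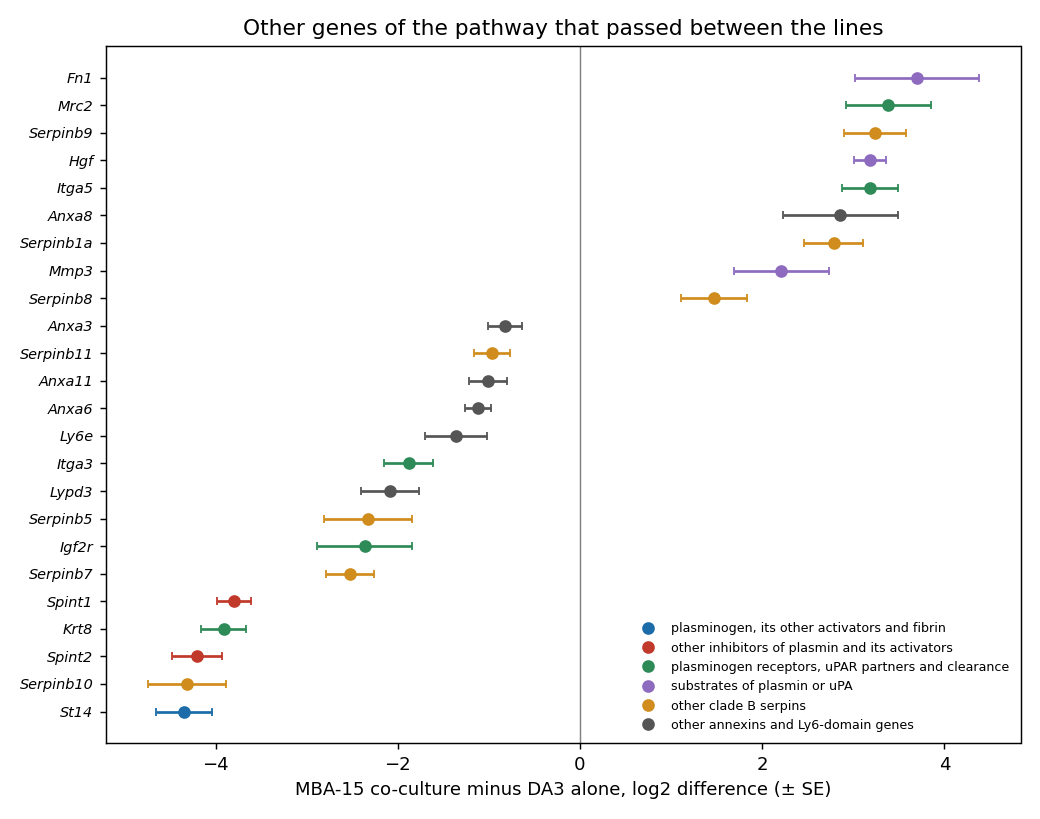
Difference between co-cultured MBA-15 and DA3 alone on the log2 scale, with the standard error of the limma fit over 2 arrays a group, for the 24 of 67 other genes of the pathway at an adjusted p under 0.05, coloured by list. Genes of matriptase and its inhibitors lie on the DA3 side (left), and Fn1, Mrc2 and Hgf on the MBA-15 side (right).

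Between co-cultured MBA-15 and DA3 alone, limma called 9 of the 67 higher and 15 lower in MBA-15. Over all genes it called 12.6%, 1213 higher and 1290 lower. The median difference over the 67, called or not, was 0.07 against 0.00438 over all genes. Among activators and fibrin genes St14 was called lower (-4.35 ± 0.31), 1 of 9 measured. Among the other inhibitors Spint2 (-4.21 ± 0.28) and Spint1 (-3.79 ± 0.19) were called lower, 2 of 8. Of 17 receptor, partner and clearance genes, 2 were called higher. They were Mrc2, the collagen receptor uPARAP that associates with the urokinase receptor (3.39 ± 0.46, limma adjusted p = 0.00511), and the fibronectin receptor subunit gene Itga5 (3.18 ± 0.31). Krt8 (-3.91 ± 0.25), the mannose-6-phosphate receptor gene Igf2r (-2.36 ± 0.52) and Itga3 (-1.88 ± 0.27) were the 3 called lower. Krt8 is also one of the epithelial markers.

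In co-cultured MBA-15 against DA3 alone, limma called 12.6% of all genes. Of 11 genes for substrates of plasmin or urokinase, it called 0 lower and 3 higher in co-cultured MBA-15. They were the fibronectin gene Fn1 (3.70 ± 0.68), the hepatocyte growth factor gene Hgf (3.18 ± 0.18, limma adjusted p = 0.000229) and the stromelysin gene Mmp3 (2.21 ± 0.53). Of 10 other clade B serpins, limma called Serpinb9 (3.24 ± 0.34), Serpinb1a (2.79 ± 0.32) and Serpinb8 (1.47 ± 0.36) higher. It called Serpinb10 (-4.32 ± 0.43), Serpinb7 (-2.52 ± 0.26), Serpinb5 (-2.33 ± 0.49) and Serpinb11 (-0.97 ± 0.20) lower. Of 12 annexin and Ly6-domain genes, Anxa8 was called higher (2.86 ± 0.64). In the same list 5 were called lower, led by Lypd3, a relative of the urokinase receptor (-2.08 ± 0.32). The lower mean was dim for St14, Spint1, Hgf, Mmp3, Serpinb1a, Serpinb7, Serpinb10, Serpinb11 and Lypd3, so that these differences are at best lower bounds. Without DA3 alone array 1 or array 2, limma called 13 or 14 of the 67 in place of 24.

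Between the fractions of the co-culture, limma called 9 of the 67 higher in MBA-15 and 9 lower. Over all genes it called 12.8%, 1651 higher and 894 lower. Lypd3 (-3.19 ± 0.32), Serpinb5 (-3.89 ± 0.49) and St14 (-4.25 ± 0.31) were lower, and Hgf (2.95 ± 0.18), Itga5 (2.90 ± 0.31) and the protease gene Ctsb, cathepsin B (1.20 ± 0.29, limma adjusted p = 0.0405), were higher. The lower mean was dim for Lypd3, St14 and Hgf, so that these differences are at best bounds, and Ctsb was not called with the assay number as a block. In the difference between the changes of both lines limma called 0 of the 67, against 0.0602% of all genes, and 8 had an unadjusted p under 0.05, against 6.32% of all genes.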

How the data were processed

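Total RNA of 8 cultures or fractions was hybridised to Affymetrix mouse gene arrays. RMA and Partek 6.5 are named in the submitters' processing notes, and the parameters are not given in the sources used here. The table deposited by the authors holds 1 value per probe set, on a log2 scale as read from its range. Groups and replicate numbers came from the titles. Of 35556 probe sets, 21789 had 1 gene symbol, 1621 had several and 12146 were not listed in the platform annotation; the highest-mean probe set of each gene was kept, which left 19938 genes. By Entrez identifier 21698 of the 21789 matched the RefSeq table. No 2 arrays shared more than 2 identical values. A model with 1 mean for each group took in all 8 arrays (limma 3.58.1, R 4.3.3, residual degrees of freedom 4 and prior 2.6), its p-values being two-sided and adjusted after Benjamini and Hochberg over all genes at 0.05. The fit was tested on simulated data. The number of arrays limits the precision, and normalization between arrays makes each value relative to the other genes.

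The members and lists were chosen with earlier results of these data known. Named genes are all members, those of the pathway lists that passed or had the largest difference, and the 3 genes with the highest Pearson r to a member among those with at least 0.5 of its SD over the arrays, predicted and clone-named loci passed over; others, such as the neighbours of Serpinb2, were chosen after their values were seen. For the matched share, values of 1 line were mixed on the linear scale into arrays of the other. Alternatives were blocks on replicate or assay number, each array left out, dim genes left out, the mean of probe sets, quantile normalization, the compared groups alone and, chosen after seeing the data, the fit without the MBA-15 arrays labelled alone and the matched share for pathway genes.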

Additional observations from a re-analysis of the deposited data

How the results depend on the processing

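Members kept the sign of their difference in all but 26 of 439 values under the alternatives, and 0 of the 26 had a difference over 0.5 log2 units to begin with. Of the 439, 416 moved by less than 1 SD between replicates. Many of these values could not move by design. A member's difference stays the same under the replicate block, the dim filter, the mean of probe sets and the compared groups alone. It also stays the same without an array outside the comparison, so both counts overstate how far the differences were tried. With each array left out in turn, Serpinb2 ranged from 3.46 to 4.06 and Plaur from 1.23 to 2.05 in co-cultured DA3 against DA3 alone, and Plau from -2.91 to -2.06 in co-cultured MBA-15 against DA3 alone. Between the lines 1 of the 2 member calls remained, Plau, without co-cultured MBA-15 array 1 or DA3 alone array 1, and 0 without co-cultured MBA-15 array 2 or DA3 alone array 2. Between the fractions 1 of 3, Serpinb2, remained without co-cultured MBA-15 array 2.

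Over all genes, 8 were called in co-cultured DA3 against alone, but 3 with the replicate number as a block, 0 with the assay number as a block, 56 with dim genes left out, 0 with the compared groups alone, 2 without both MBA-15 arrays labelled alone, and 0 to 3 with 1 array left out. In MBA-15, 169 were called, 28 with the compared groups alone and 13 to 198 with 1 array left out. Between co-cultured MBA-15 and DA3 alone 2503 were called, and 995 to 2870 with 1 array left out. Between the fractions 2545 were called, 1123 with the compared groups alone and 1642 to 2229 with 1 array left out. In the difference of changes 12 were called, 0 with the replicate block, 0 with the assay block, 40 with dim genes left out, 29 after quantile normalization and 0 to 8 with 1 array left out. Fewer arrays or fewer genes enter the fit in most of these; the cause of the other shifts was not tested. Deviations of arrays with the same replicate number correlated between -0.413 and 0.311 over pairs of groups, which cannot tell if the numbers pair the samples. In DA3 alone and both MBA-15 groups, replicate 1 carries assay number 4 and replicate 2 assay number 3. In co-cultured DA3 they carry 3 and 5. The replicate block changed no call of the members. Among the pathway genes in MBA-15, 6 of 7 were called with it, Anxa6 being lost, and it called 22 in place of 24 between the lines and 17 in place of 18 between the fractions.

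Of the pathway genes in MBA-15, 7 were called, 4 without co-cultured MBA-15 array 1 or either DA3 alone array, 1 (Spint2) without co-cultured MBA-15 array 2 and 1 (Spint1) without array 2 labelled MBA-15 alone. Between the lines 13 were called without DA3 alone array 1 and 14 without array 2, in place of 24. At the matched share the differences of Serpinb10 (0.0138), Spint1 (0.17) and St14 (0.0210) changed sign in MBA-15.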
